A study of Mus musculus with 12 samples.

Results

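The 7 genes described here are noncoding RNAs that act mostly in the nucleus: Malat1, Neat1, Meg3, H19, Kcnq1ot1, Rpph1 and Rmrp. They were chosen by name and by level, since Malat1 and Rpph1 hold a visible share of the sequenced counts, and they were followed over a time course in which mouse breast cancer cells turn into fat cells. The count table holds 17090 genes, and 6 of the 7 have a row in it; Meg3 was not analysed here. H19 had 3 counts and Kcnq1ot1 had 6 counts over all 12 libraries, so the name "abundant" applies to neither of them in these cells. Malat1, Neat1, Rpph1 and Rmrp passed the filter on low counts, with at least 1564 counts in every library, and are the 4 RNAs tested below. Their share of counts is what the choice used, so their levels are given as a description with no test.

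The cells are MTΔECad, a mesenchymal mouse breast cancer line, and every group is this same line, harvested at 0 h, 6 h and days 3, 5, 7 and 10 of the protocol. Each of the 6 time points has 2 libraries from 2 independent experiments. By the labels' protocol, cells seeded at 20000 per cm2 received 200 ng/ml BMP2, a growth factor, for 3 days. They then received BMP2 with 2 µM rosiglitazone, an agonist of the fat cell regulator PPARγ, for 4 days and medium with rosiglitazone alone for 3 days. The labels show no untreated cells at the later times, so time in culture and treatment cannot be told apart. All groups rest on 1 cell line, and the libraries are of bulk RNA, in which fewer cells of a type and less RNA per cell cannot be told apart.

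Malat1 and Neat1 are long RNAs made by RNA polymerase II from neighbouring genes. Malat1 gathers in nuclear speckles, bodies rich in splicing factors, and Neat1 is the scaffold of paraspeckles, bodies built from RNA-binding proteins. The 3′ ends of Malat1 and of the long Neat1 transcript are made without a usual poly(A) tail, while the short Neat1 transcript is polyadenylated. At the former ends, RNase P cuts off a tRNA-like piece, and the new end is protected by a triple helix of U-rich and A-rich stretches. Rpph1 is the catalytic RNA of RNase P, which trims the 5′ ends of tRNA precursors, and Rmrp is its relative in RNase MRP, which cuts ribosomal RNA precursors in the nucleolus; both are made by RNA polymerase III and share most of their protein partners. H19, Meg3 and Kcnq1ot1 are imprinted long RNAs, each expressed from the copy inherited from 1 parent, and Kcnq1ot1 silences neighbouring genes on its chromosome.

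On GRCm38, in the RefSeq annotation, Malat1 is at chr19:5795690-5802672 and Neat1 at chr19:5824708-5845480, both on the minus strand and 22036 bases apart. Rpph1 is at chr14:50807447-50807771 on the minus strand, 126 bases from the start of Parp2. Rmrp is at chr4:43492785-43493059 on the minus strand, 281 bases from Ccdc107, and in GENCODE vM21 the genes overlap by 159 bases. H19 is at chr7:142575530-142578146 and Kcnq1ot1 at chr7:143213111-143296547, inside Kcnq1, both on the minus strand. Meg3 is at chr12:109540996-109571729 on the plus strand.

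The RNAs of RNase P and RNase MRP are shown because they are the 2 shortest of the tested RNAs and relatives in function. Both come from GENCODE vM21 on GRCm38, minus strand: the first 300 bases of Rpph1 (chr14:50807468-50807767) and all of Rmrp (chr4:43492788-43493058). Capitals mark a run of 9 bases that the 2 RNAs have in common, and no shared run is longer. The run gcagtgcga, of the same length, is also shared and is not marked.

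Rpph1: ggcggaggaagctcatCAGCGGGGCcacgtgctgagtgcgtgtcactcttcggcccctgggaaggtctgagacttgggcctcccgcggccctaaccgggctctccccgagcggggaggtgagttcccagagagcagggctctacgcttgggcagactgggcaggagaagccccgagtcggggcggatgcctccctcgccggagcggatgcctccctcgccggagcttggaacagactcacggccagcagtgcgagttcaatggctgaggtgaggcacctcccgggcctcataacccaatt

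Rmrp: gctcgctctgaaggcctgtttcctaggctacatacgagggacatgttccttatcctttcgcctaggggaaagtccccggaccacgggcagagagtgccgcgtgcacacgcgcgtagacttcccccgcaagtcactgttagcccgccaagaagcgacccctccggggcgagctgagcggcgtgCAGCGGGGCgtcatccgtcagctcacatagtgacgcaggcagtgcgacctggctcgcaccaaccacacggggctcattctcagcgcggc

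The whole Rpph1 transcript is 319 bases long with 67.1% G and C, and that of Rmrp is 271 bases long with 64.2%.

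The 3′ end regions of Malat1 and Neat1 are shown because this is the part that RNase P cuts and the triple helix protects. The first stretch is the 100 bases of Malat1 just before mascRNA (chr19:5795982-5796081), the tRNA-like piece that is cut off. The second is the last 100 bases of the long Neat1 transcript (chr19:5824708-5824807). Capitals mark the longest run the stretches have in common, 16 bases in the U-rich part, and both stretches end in the same 11 A-rich letters.

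Malat1 before mascRNA: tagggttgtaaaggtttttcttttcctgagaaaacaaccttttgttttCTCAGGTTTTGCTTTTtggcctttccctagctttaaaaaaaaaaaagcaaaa

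Neat1 end: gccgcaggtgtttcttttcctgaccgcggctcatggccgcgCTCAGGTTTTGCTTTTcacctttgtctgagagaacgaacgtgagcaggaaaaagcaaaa

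mascRNA: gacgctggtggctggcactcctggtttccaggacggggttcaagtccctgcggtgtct

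mascRNA itself is 58 bases long (chr19:5795924-5795981), at positions 6692 to 6749 of the 6983 bases of Malat1. The counts are per gene, so mascRNA and the rest of Malat1 are not told apart, nor are the long and short transcripts of Neat1 (20771 and 3004 bases).

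Scaled counts below are CPM (counts relative to library size) after TMM scaling, which assumes that most genes do not differ between libraries. In day 10 against 0 h 82.7% of genes were called, so that assumption may not hold there. Fold changes are log2 values with their standard error (SE) from edgeR's quasi-likelihood test, with p-values adjusted by Benjamini-Hochberg over all 12740 genes tested, and a gene is called at an adjusted p below 0.05. The 2 libraries of a group give 6 residual degrees of freedom over the whole course.

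Library totals lay between 12820802 and 17570366 counts. Fabp4, a fat cell lipid carrier, was at 1.32 and 1.42 scaled counts at 0 h and at 19230 and 18420 at day 10. Of 7 mesenchymal markers, 3 were called higher and 4 lower at day 10 than at 0 h, with a median log2 change of -1.69, beside 42.8% and 39.9% of all genes. Vim, a mesenchymal filament protein, went from 7299 and 7045 scaled counts at 0 h to 2035 and 2322 at day 10, and Acta2, smooth muscle actin, from 2047 and 2004 to 38.3 and 29.6. Epithelial markers were not absent. Of 5 epithelial markers, 2 were called higher and 2 lower at day 10 than at 0 h, with a median log2 change of -0.46. Krt8, a keratin, had 685 to 9046 counts per library. It went from 546.9 and 559.2 scaled counts at 0 h to 233.0 and 210.2 at day 10, and Krt18 from 171.6 and 173.0 to 45.3 and 41.6. The keratin Krt14 went from 117 ± 18 scaled counts at 0 h to 664 ± 23 at day 10 (SD, n = 2). Epcam, which passed the filter through later times alone, went from 0 to 140 counts per group. Cdh1, the E-cadherin gene that the name of the line points to, had 20 counts or fewer per library. The summed epithelial level was 838 to 849 scaled counts at 0 h, 103 to 150 at day 3 and 906 to 964 at day 10; its part in the results below was not tested. The leukocyte gene Ptprc had 0 or 1 count in each library. Other leukocyte markers went in both directions at low levels. Cd68 went from 1.03 and 1.05 scaled counts at 0 h to 3.49 and 2.99 at day 10, and Csf1r from 29 to 2 counts per group. Pecam1, an endothelial marker, had 0 to 3 counts per library up to day 5 and 22 to 52 counts at days 7 and 10. Cdh5, another endothelial marker, went the other way, from 19 counts per group at 0 h to 0 at day 10.

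Malat1 was the RNA that came to lead the libraries. It rose 5.11-fold between 6 h and day 3 and was 5.81-fold above 0 h at day 10. At 0 h its scaled counts were 4892 and 5300, and at 6 h they were 4983 and 5334. At day 3 they were 26610 and 26140, at day 5 they were 20110 and 23140, at day 7 they were 26820 and 26230, and at day 10 they were 29730 and 29500. The 4 early libraries lay far below the 8 later ones, with no overlap, and replicates of a time point lay close together except at day 5.

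The step from 6 h to day 3 was a log2 change of 2.35 (SE 0.096, adjusted p = 1.51e-12 by edgeR), in a comparison in which 68.4% of all genes were called. Day 10 against 0 h gave 2.54 (SE 0.097, adjusted p = 1.77e-13, 5.81-fold), where 82.7% of all genes were called. Between 0 h and 6 h the change was 0.02 (adjusted p = 1.0), where 0.746% of all genes were called. After day 3 the steps were small. Malat1 fell by 0.29 on the log2 scale to day 5 (adjusted p = 0.0117) and rose by 0.29 to day 7 (adjusted p = 0.0182), in comparisons in which 65.0% and 37.8% of genes were called. The step to day 10 was 0.16 (adjusted p = 0.216), where 28.4% were called. Without day 5 replicate 1 neither small step was called: the fall was then -0.21 (SE 0.107, adjusted p = 0.115; 0.000321 to 0.133 over all alternatives) and the rise 0.21 (SE 0.107, adjusted p = 0.145; 0.000359 to 0.363). In 2 settings a call was lost at a fold close to the main one but with a larger SE: the rise was 0.28 (SE 0.108, adjusted p = 0.0733) without day 7 replicate 1, and the fall was -0.30 (SE 0.167, adjusted p = 0.133) in a fit of day 3 and day 5 alone. With library totals alone the rise was 0.10 (adjusted p = 0.363).

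As a share of all counts, Malat1 went from 0.520% and 0.564% at 0 h to 3.01% and 3.02% at day 3, and was 2.44% and 2.49% at day 10. The exact (Clopper-Pearson) 95% interval of the first of these shares was 0.516% to 0.524%, and such intervals cover counting error alone. By count it was the 7th gene in all 4 early libraries, the 1st in the libraries of days 3 and 5, and the 2nd at days 7 and 10.

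Neat1 took the same step at a far lower level and went on rising. Its scaled counts were 114.8 and 130.4 at 0 h, 113.3 and 120.4 at 6 h, and 403.1 and 526.4 at day 3. They were 397.3 and 485.2 at day 5, 646.5 and 624.3 at day 7, and 794.9 and 879.3 at day 10. Every later library lay above every early one, and the day 3 and day 5 libraries overlapped.

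The change from 6 h to day 3 was 1.99 (SE 0.128, adjusted p = 1.28e-08, 3.98-fold). It was followed by -0.07 to day 5 (adjusted p = 0.616), 0.53 to day 7 (SE 0.122, adjusted p = 0.00444) and 0.40 to day 10 (SE 0.122, adjusted p = 0.0272). Day 10 against 0 h gave 2.77 (SE 0.132, adjusted p = 1.88e-10, 6.82-fold). The last step was not called without day 7 replicate 1, day 7 replicate 2, day 10 replicate 1 or day 10 replicate 2 (adjusted p of 0.0902, 0.149, 0.0534 and 0.179). Its value was then 0.42, 0.37, 0.47 and 0.32, with an SE of 0.151 to 0.161 in place of 0.122. With library totals alone the later steps were 0.33 and 0.28 and neither was called (adjusted p of 0.0566 and 0.127; over all alternatives, 1.21e-08 to 0.0566 and 0.000151 to 0.179).

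Within each library the proportion of Malat1 to Neat1 does not depend on scaling. There were 42.6 and 40.6 Malat1 counts per Neat1 count at 0 h, 66.0 and 49.7 at day 3, and 37.4 and 33.6 at day 10. The day 10 libraries were the lowest of all and the day 3 and day 5 libraries the highest. Per kilobase the proportion was 99.8 to 196 over all 12 libraries, with Neat1 counts divided by the 20771 bases of its long transcript. The short transcript has 3004 bases and is not told apart, so this proportion depends on the length used.

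**Figure D1:**
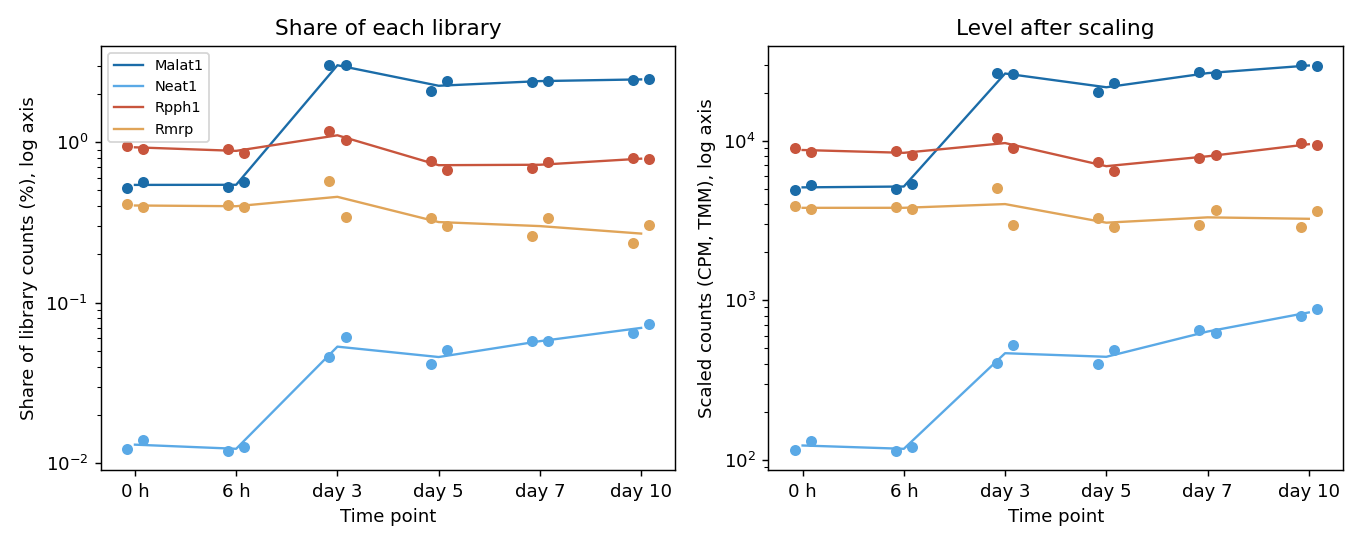
Share of library counts in percent (left) and scaled counts in CPM (right) of the 4 tested RNAs at each time point, both on log axes; points are single libraries and lines join the means of 2. Malat1 and Neat1 step up between 6 h and day 3, while Rpph1 stays between 6496 and 10360 CPM and Rmrp between 2869 and 5047 CPM.

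**Figure D2:**
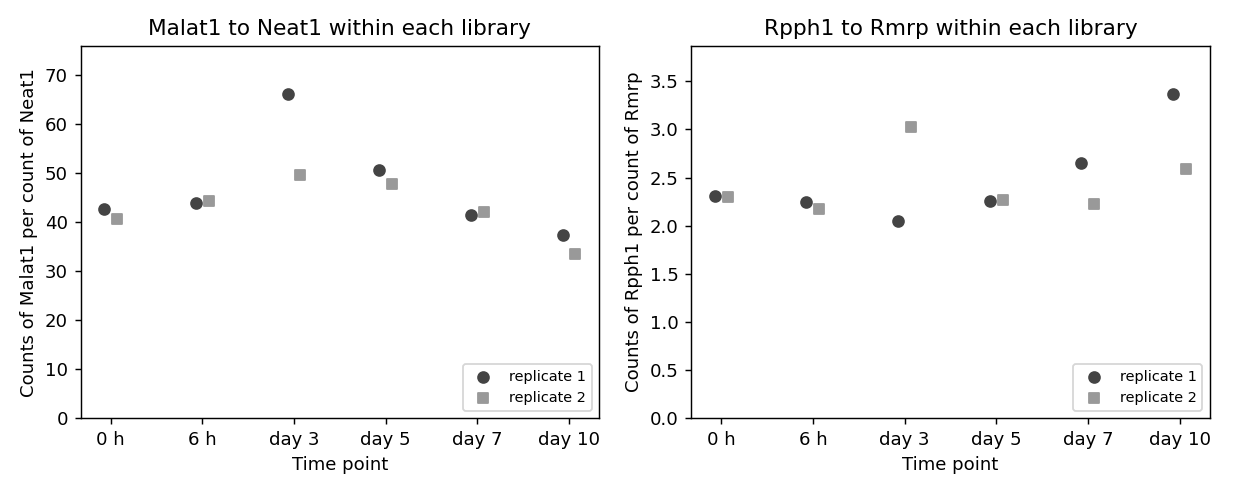
Malat1 counts per Neat1 count (left) and Rpph1 counts per Rmrp count (right) within each library, by time point, from a zero baseline; circles are replicate 1 and squares replicate 2. The first ratio peaks at 66.0 in day 3 replicate 1 and is lowest at day 10, and the second is most uneven between replicates at days 3 and 10.

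Rpph1, the RNase P RNA, varied far less than Malat1 over the course. Its scaled counts were 8937 and 8542 at 0 h, 8654 and 8131 at 6 h, and 10360 and 8963 at day 3. They were 7345 and 6496 at day 5, 7790 and 8173 at day 7, and 9666 and 9334 at day 10. The lowest library was day 5 replicate 2 and the highest day 3 replicate 1, and the 0 h and day 10 libraries did not overlap.

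1 of its 5 consecutive steps was called: Rpph1 fell by 0.48 on the log2 scale from day 3 to day 5 (SE 0.093, adjusted p = 0.00025, at most 0.0136 over the alternatives). The other steps were -0.06 from 0 h to 6 h (adjusted p = 1.0), 0.20 to day 3 (0.0633), 0.21 from day 5 to day 7 (0.0937) and 0.25 to day 10 (0.0539). Day 10 against 0 h was 0.12 (SE 0.093, adjusted p = 0.239). With library totals alone this turned to -0.24 (adjusted p = 0.0202; 0.0202 to 0.553 over all alternatives). The share of counts went the same way as that value, from 0.949% and 0.908% at 0 h to 0.791% and 0.787% at day 10. The TMM factors were 1.06 in both 0 h libraries and 0.819 and 0.844 at day 10, and the direction of Rpph1 over the whole course turned with their use.

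Per kilobase Rpph1 stood 1st among all genes in every library from 0 h to day 7 and 2nd at day 10. At 0 h it had 26890 ± 860 scaled counts per kilobase (SD, n = 2) and at day 10 it had 29230 ± 722. Rmrp was 2nd per kilobase in the early libraries, at 13790 ± 411 at 0 h, and 4th at day 10, at 11770 ± 1865. Malat1 went from 730 ± 41 per kilobase at 0 h to 4242 ± 24 at day 10. By the length of its long transcript, Neat1 went from 5.91 ± 0.53 to 40.3 ± 2.9. The order of the 4 per kilobase, Rpph1 over Rmrp over Malat1 over Neat1, held at every time point.

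Rmrp, the RNase MRP RNA, was called in none of the 6 comparisons by edgeR (lowest unadjusted p = 0.136) or DESeq2 (lowest adjusted p = 0.171), and its joint test for any difference between times gave an adjusted p of 0.535 (0.531 unadjusted). Its scaled counts were 3872 and 3712 at 0 h, 3844 and 3743 at 6 h, 5047 and 2959 at day 3, and 3251 and 2869 at day 5. They were 2942 and 3668 at day 7 and 2874 and 3599 at day 10. The day 3 libraries span the values of most other libraries. Their log2 difference of 0.77 exceeds 0.44, the value under which 95% of the 2396 genes with at least 100 CPM lie at day 3.

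Day 10 against 0 h was -0.23 for Rmrp (SE 0.233, adjusted p = 0.386), and both day 10 libraries lay below both 0 h libraries. That difference was called with no filter on low counts (-0.26, adjusted p = 0.00544) and in a fit of the 4 libraries compared (-0.24, adjusted p = 0.0294), within a range of 0.00544 to 0.818 over all alternatives. Without day 3 replicate 2 the steps into and out of day 3 were called, at 0.41 (adjusted p = 0.0254) and -0.72 (adjusted p = 0.000987). Over all fits with 1 library left out, these steps ran from -0.36 to 0.41 and from -0.72 to 0.05. Their direction thus depended on which library was kept. The joint test called 94.7% of all genes, and with them Malat1 (adjusted p = 4.92e-14), Neat1 (2.14e-10) and Rpph1 (0.00127).

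Rpph1 and Rmrp stayed close to a fixed proportion in most libraries. There were between 2.05 and 3.36 Rpph1 counts per Rmrp count, with 2.31 and 2.30 at 0 h and 3.36 and 2.59 at day 10. The highest and lowest values come from time points whose replicates differ most, as the plot of ratios within libraries shows.

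**Figure D3:**
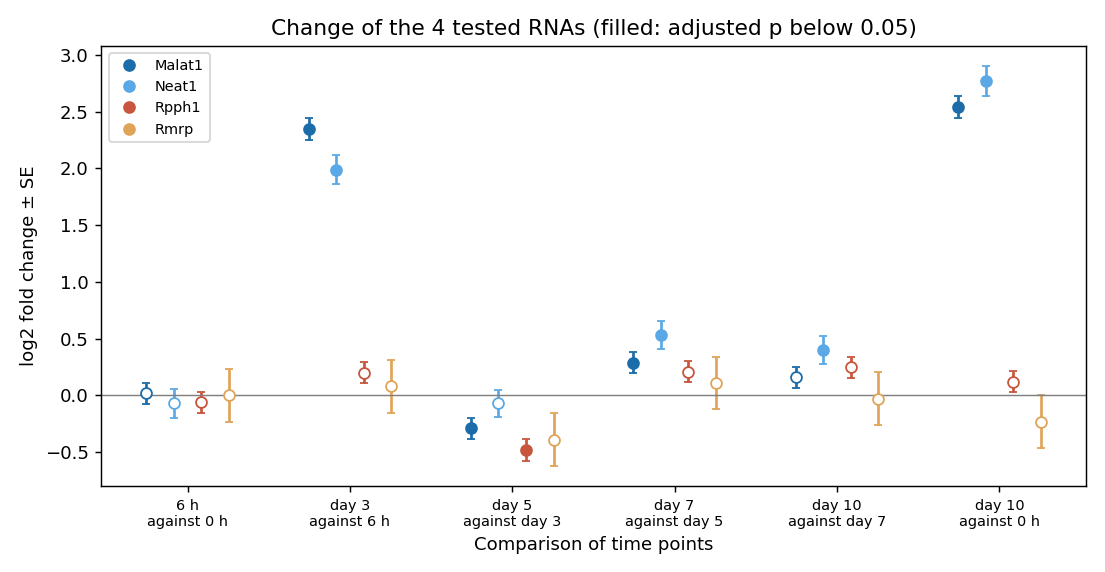
Log2 fold change with SE of Malat1, Neat1, Rpph1 and Rmrp in each comparison of time points; filled points have an adjusted p below 0.05. Malat1 and Neat1 have values of 1.99 to 2.77 in day 3 against 6 h and day 10 against 0 h, and Rmrp has no filled point.

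Part of each Rpph1 and Rmrp count may belong to an overlapping gene, since the annotation and strand setting of the counting are not given. The strand setting matters for Rmrp and Ccdc107, on opposite strands, and not for Rpph1 and Ccnb1ip1. Of the 270 runs of 50 bases in Rpph1, 184 also occur on the same strand of a Ccnb1ip1 transcript, yet Ccnb1ip1 had 1 count in the whole table. Of the 222 runs in Rmrp, 75 occur in Ccdc107 on the opposite strand, and Ccdc107 had 242 to 464 counts per library beside at least 32081 for Rmrp. No run of 50 bases of Rpph1 occurs in Rprl1, Rprl2 or Rprl3, its diverged relatives in the mouse genome.

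H19 and Kcnq1ot1 were at the edge of detection. H19 had 2 counts in 0 h replicate 1, 1 count in 6 h replicate 2 and 0 in the other libraries. Kcnq1ot1 had 3 counts in day 3 replicate 1, 1 count each in 6 h replicate 1, day 5 replicate 2 and day 10 replicate 2, and 0 elsewhere. A count of 0 in a library was read here as up to 3 counts, so no difference between times was detectable for either at this depth.

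Genes of the same imprinted domains were not all silent. Igf2, a growth factor gene beside H19, had 0 counts in both 0 h libraries, 19 and 15 at day 3, 174 and 149 at day 5, 499 and 661 at day 7, and 371 and 369 at day 10. It was highest at day 7, at 34.5 and 40.8 scaled counts beside 33.2 and 28.3 at day 10. Igf2 was at least 303-fold higher at day 10 than at 0 h, taking 3 counts over the group as the floor. Slc22a18, a transporter gene in the Kcnq1ot1 domain, was at least 214-fold higher by the same floor. With 0 counts at 0 h, Igf2 and Slc22a18 passed the filter through later times alone, so they had to differ from 0 h. Both are among the genes counted as higher below. Cd81, a membrane tetraspanin, rose by 0.85 (adjusted p = 2.81e-08) and Nap1l4, a histone chaperone, by 0.52 (adjusted p = 4.79e-06). Tnfrsf22 and Tnfrsf23, decoy death receptors, fell by 2.43 and fell by 1.75 on the log2 scale. Of 23 listed genes of these domains, 15 had a row and 8 were tested; 4 were called higher and 4 lower at day 10 than at 0 h, beside 42.8% and 39.9% of all genes, with a median of 0.05 beside 0.06 over all genes, which turned to -0.31 with library totals alone. Kcnq1, Cdkn1c and Phlda2, which Kcnq1ot1 is known to silence in other tissues, had at most 3, 2 and 4 counts in any library.

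Genes beside the abundant RNAs went in both directions. Frmd8, a protein-coding gene beside Malat1 and Neat1, fell by 0.43 on the log2 scale from 0 h to day 10 (adjusted p = 0.000814). Ltbp3, which binds latent TGFβ, and Slc25a45, a mitochondrial carrier, are in the same region and rose by 2.42 and 2.83. Parp2, a DNA repair enzyme that starts next to Rpph1, fell by 1.08 (adjusted p = 3.62e-08), from 62.9 and 61.5 to 31.1 and 27.7 scaled counts. Ccdc107, next to Rmrp, rose by 0.67 (adjusted p = 0.000134). The list of neighbours also covers the regions of the imprinted RNAs, with Lsp1 near H19 among the genes tested. Of 13 tested neighbours, 5 were called higher and 7 lower at day 10, a split near that of all genes (42.8% higher and 39.9% lower).

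Genes of the proteins listed for these RNAs and their processes were mostly lower at day 10 than at 0 h. In that comparison 42.8% of all genes were called higher and 39.9% lower. Of the proteins of RNase P and RNase MRP, 2 of 11 were called higher and 7 lower, with a median log2 change of -0.55. Pop1, the largest shared subunit, fell by 3.48 (adjusted p = 1.4e-14), from 109.7 and 100.3 scaled counts at 0 h to 8.96 and 9.80 at day 10. Most of this lay in the step to day 3, where Pop1 fell by 2.56 (adjusted p = 6.66e-13). Rpp30, another subunit, fell by 2.05 (adjusted p = 5.75e-11), and Rpp14 was at -0.03 (adjusted p = 0.761). The RNA subunits Rpph1 and Rmrp, at 0.12 and -0.23, were not called in the same comparison.

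Of 34 genes of RNA polymerase III, which makes Rpph1 and Rmrp, and of its factors, 3 were called higher and 26 lower, with a median of -0.71. Not every factor in the list acts on these 2 RNAs. Polr3gl, the form of a subunit known from differentiated cells, rose by 4.04 (adjusted p = 1.23e-12), from 2.13 and 2.35 to 39.5 and 34.8 scaled counts. Polr3d, a core subunit, fell by 1.68 (adjusted p = 4.07e-08), and Ssb, the La protein that binds the ends of new polymerase III transcripts, fell by 1.06 (adjusted p = 3.29e-10). Larp7, which binds the 7SK RNA, fell by 1.89 (adjusted p = 3.35e-12). Gtf3c1, with Ssb the most abundant of the list, was at 174.2 and 166.5 scaled counts at 0 h and 158.9 and 149.0 at day 10.

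Of 33 paraspeckle proteins, 5 were called higher and 23 lower while Neat1 itself rose, with a median of -0.70. Matr3, an abundant nuclear matrix RNA-binding protein, fell by 0.51 (adjusted p = 5.69e-06) and Fam98a fell by 1.96 (adjusted p = 9.58e-12). Cirbp, a cold-inducible RNA-binding protein, rose by 1.81 (adjusted p = 2.13e-10), and Zc3h6, a zinc finger protein, rose by 2.68 (adjusted p = 3.29e-10). Zc3h6 and Cirbp took this step between 6 h and day 3, by 2.75 and 2.14, as Neat1 did. Aff4, with Matr3 the most abundant of the list, was at 271.0 and 275.5 scaled counts at 6 h and 514.3 and 531.3 at day 3. At day 10 Aff4 was at 397.2 and 412.3, beside 261.4 and 263.5 at 0 h.

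Of 34 nuclear speckle proteins, 6 were called higher and 22 lower, with a median of -0.68. The kinases Clk1 and Clk4, which phosphorylate splicing factors, rose by 1.89 (adjusted p = 9.92e-13) and 1.27 (adjusted p = 6.4e-10). The splicing factor Srsf1 fell by 1.10 (adjusted p = 1.21e-10) and the helicase Ddx46 fell by 1.55 (adjusted p = 1.36e-11), while Sf3b1, a core spliceosome protein, was at 0.14 (adjusted p = 0.0868).

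Of 16 genes listed for the ends of Malat1, nuclear RNA decay or methyl (m6A) marks on RNA, 2 were called higher and 13 lower. Their median was -0.85. Dis3, a catalytic subunit of the exosome, fell by 2.79 (adjusted p = 1.32e-13), from 123.5 ± 7.3 to 17.8 ± 2.2 scaled counts (SD, n = 2). Mtrex, the helicase that feeds the nuclear exosome, fell by 0.94 (adjusted p = 9.22e-10) and Zcchc8, its partner, fell by 1.14 (adjusted p = 1.77e-09). Mettl3, the enzyme that places m6A marks on RNA, fell by 1.18 (adjusted p = 1.61e-08). In the step from 6 h to day 3, where Malat1 and Neat1 rose, 1 of the 16 was called higher and 11 lower, beside 32.9% and 35.5% of all genes.

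The nucleolar proteins that assemble ribosomes fell most widely of these lists: 28 of 30 were called lower at day 10 and 2 were not called, with a median of -2.36. Npm1 and Ncl, abundant nucleolar proteins, had log2 changes of -2.77 and -2.17, and Nop58 and Dkc1, core proteins of small nucleolar RNPs, of -3.30 and -3.27, each called. The medians of all these protein lists kept their sign under each of the 4 other scalings; library totals alone moved the median of all genes by -0.35 in this comparison.

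**Figure D4:**
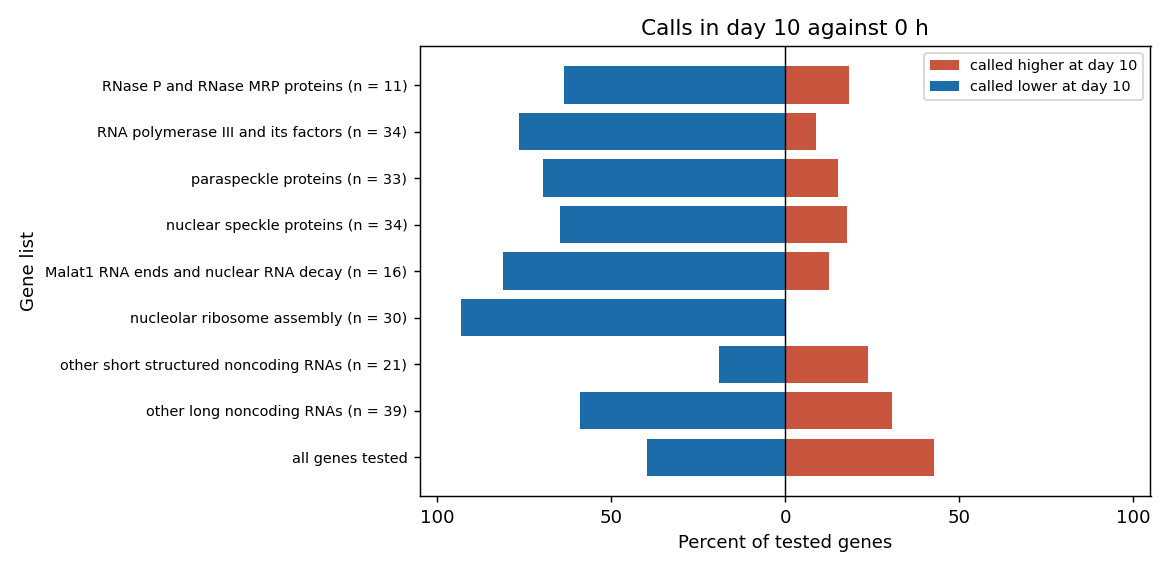
Percent of tested genes in each list called higher (right) or lower (left) at day 10 than at 0 h, with all genes tested at the bottom. The 6 protein lists lie mostly on the lower side, with 28 of 30 nucleolar genes lower, and the short structured RNAs have the fewest calls.

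Other short structured RNAs, most of them guides of RNA modification, were measured in part. Of 55 listed, 27 had a row and 21 were tested; 5 were called higher and 4 lower at day 10 than at 0 h, and 12 were not called, beside 42.8% of all genes called higher and 39.9% lower. Their median of 0.08 turned to -0.27 with library totals alone. Between day 3 and day 5, the step in which Rpph1 fell, 11 of 21 were called lower and 10 were not called, beside 31.0% of all genes called lower. Terc, the telomerase RNA, fell by 2.55 from 0 h to day 10 (adjusted p = 2.71e-08), and Snora74a, a snoRNA, rose by 1.14 (adjusted p = 0.00274). Rprl3, a relative of Rpph1, fell by 0.59 from day 3 to day 5 (adjusted p = 2.3e-05) and was at 0.08 over the whole course (adjusted p = 0.414).

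Of 39 other long noncoding RNAs tested from a list of 64, 21 were called higher and 8 lower from 6 h to day 3, beside 32.9% and 35.5% of all genes. From 0 h to day 10, 12 were called higher and 23 lower, beside 42.8% and 39.9% of all genes. Xist, the RNA that coats the inactive X chromosome, rose by 1.66 in the first of these comparisons (adjusted p = 0.000582) and by 1.26 in the second (adjusted p = 0.00189). Gas5, a host gene of snoRNAs, rose by 0.52 to day 3 (adjusted p = 1.13e-05) and then fell by 1.34 to day 5 (adjusted p = 1.43e-10). Snhg4, another snoRNA host, fell by 3.99 over the whole course (adjusted p = 1.32e-13), and Morrbid, which lies near Bcl2l11, fell by 5.38 (adjusted p = 2.09e-13). The lists tested here hold genes that passed the filter, so a gene seen at some times alone had to differ.

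Markers of cell division moved in the same step as Malat1 and Neat1, a step in which 32.9% of all genes were called higher and 35.5% lower. Mki67, Top2a, Ccnb1 and Cdk1 all fell from 6 h to day 3 (4 of 4 called), and their summed level went from 2774 to 2887 scaled counts in the 4 early libraries to 43.2 to 66.2 at day 3 and 36.2 to 93.6 from day 5 on. Of 53 replication-dependent histone genes, which are expressed in S phase and whose transcripts lack a poly(A) tail, 50 were called lower at day 3 than at 6 h, with a median of -4.14. H2bc18 fell by 3.83 and H1f2 fell by 1.38 in that step. Of 7 fat cell markers, 3 were called higher and 4 were not called from 6 h to day 3, and their summed level went from 43.6 and 49.5 to 423 and 357 scaled counts, on the way to 31090 and 29610 at day 10. Lpl, the lipase that takes up blood lipids, went from 19.9 and 23.7 at 6 h to 330.5 and 294.8 at day 3, while Fabp4 was at 1.84 and 1.32 at day 3. The part of cell division or of fat cell formation in the rise of Malat1 and Neat1 was not tested.

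Over the 12 libraries, log2 scaled counts of Malat1 and Neat1 had a Pearson correlation of 0.98, and those of Rpph1 and Rmrp 0.53; pairs across the 2 classes lay between -0.44 and 0.02. These values describe 6 time points with 2 libraries each, which share depth and scaling. Of the 9286 other genes with a mean of at least 10 CPM, 412 had a correlation of 0.95 or more with Malat1 and 437 with Neat1, while 0 did with Rpph1 or Rmrp. The genes most like Malat1 were Vps13b (0.998), Clec2d (0.998) and Tmem59 (0.997), and those most like Neat1 were Rora (0.996), Tet2 (0.994) and Insr (0.994). Rora rose by 5.73 and Clec2d by 3.37 from 0 h to day 10. For Rpph1 they were Pot1a (0.917), Ankle2 (0.889) and Mustn1 (0.882), and for Rmrp Yes1 (0.788), Unc13d (0.772) and Arl3 (0.753).

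**Figure D5:**
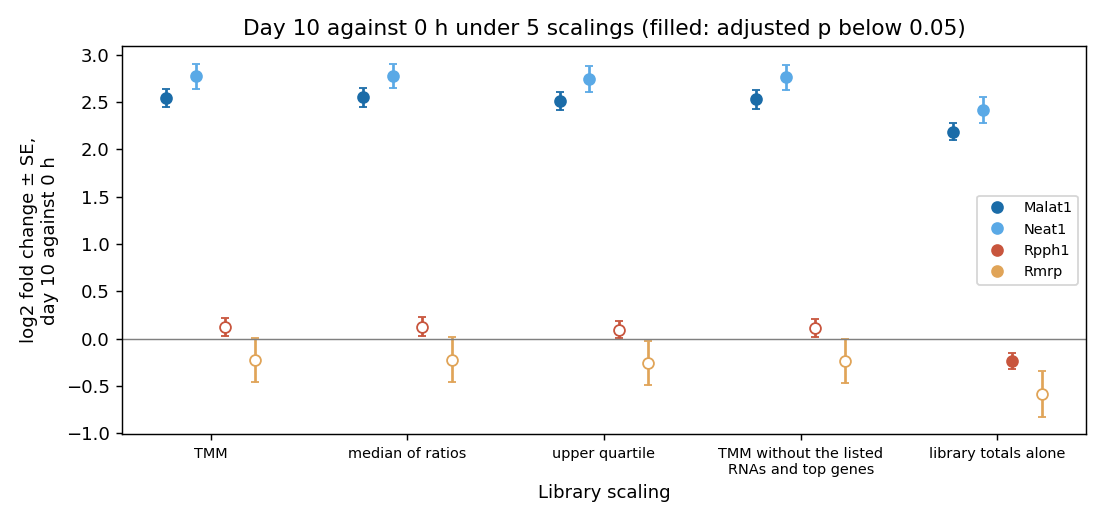
Log2 fold change with SE of the 4 RNAs in day 10 against 0 h under 5 ways of scaling libraries; filled points have an adjusted p below 0.05. Malat1 and Neat1 stay above 2 in all 5, and Rpph1 lies at 0.12 with TMM and at -0.24 with library totals alone.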

How the data were processed

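RNA of MTΔECad cells was measured in 12 libraries, 2 at each of 6 time points. The labels' protocols name 200 ng of total RNA per library and a kit for stranded total RNA, and also call the sequenced RNA poly-A+. How well RNAs without a poly(A) tail (Malat1, the long Neat1 transcript, Rpph1, Rmrp, histone transcripts) were kept is not stated there. The authors deposited raw counts per gene with a gene length. The submitters' processing notes name STAR and mm10; for the counting tool, its strand setting and its annotation the sources used here give nothing. Of 17090 Entrez identifiers, RefSeq (GRCm38.p6) named 17045 and GENCODE vM21 named 4; 41 were not matched. Sequences come from GENCODE vM21, and the position of mascRNA from RefSeq.

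All 12 libraries entered 1 fit by edgeR 4.0.16 (R 4.3.3), with time point as the only term, after filterByExpr (minimum count 10, minimum total 15; 12740 genes tested, 4350 removed) and TMM scaling. Robust quasi-likelihood F tests were adjusted by Benjamini-Hochberg over all genes tested, with calls at an adjusted p below 0.05. The common biological coefficient of variation was 0.0737. Consecutive comparisons share a time point, and p-values measure the spread between 2 experiments, pooled over times. Correlations used log2 CPM with a prior count of 2. In a test on simulated counts (12740 genes, 200 of them altered, day 10 against 0 h) the fit found 65.4% of 1.5-fold, 88.1% of 2-fold and 98.4% of 4-fold alterations, with 6 false calls among 171. Few genes were altered there, while 82.7% of genes were called in this comparison of the real data. These rates therefore describe the simulated setting alone.

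The 7 RNAs and the gene lists were chosen with earlier results of these data known. Named genes were taken from the 7 RNAs, their neighbours, the genes of their imprinted domains, defining markers and the 3 genes most alike to each RNA. For each other list they were taken from the 3 strongest called changes in day 10 against 0 h and the 2 most abundant genes. Not all of these genes are named. Alternatives were 4 other scalings, 2 other filters, DESeq2 1.42.0, a replicate block, a prior count of 1, a fit of only the libraries compared, and each library left out in turn.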

Additional observations from a re-analysis of the deposited data

How the results depend on the processing

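Over 22 alternatives each, Malat1 and Neat1 stayed called higher in day 3 against 6 h and in day 10 against 0 h; the latter ran from 2.18 to 2.60 for Malat1 and from 2.42 to 2.86 for Neat1. Rpph1 in day 10 against 0 h was 0.12 and became -0.235 with library totals alone, and Rmrp, at -0.23, became called with no filter (-0.258) and with only the libraries compared (-0.242); the causes were not tested. The smaller steps of Rpph1 crossed the threshold in 6 (day 3 against 6 h), 5 (day 7 against day 5) and 8 (day 10 against day 7) of 22 alternatives. The number of genes called at 6 h against 0 h was 95, with 275 under no filter, 223 with only the libraries compared and 35 to 141 when 1 library was left out. Leaving out 1 library gave 3128 to 5154 genes for day 7 against day 5 (4815) and 2143 to 3998 for day 10 against day 7 (3615). Other counts of genes called stayed within 1.5 times. Library totals alone moved the share of calls that were higher from 50.4% to 23.3% in day 7 against day 5, from 53.4% to 29.7% in day 10 against day 7 and from 51.7% to 40.5% in day 10 against 0 h. With upper-quartile factors the median of all genes moved by 0.12 in day 3 against 6 h. Counts of list members called stayed within 1.5 times in 815 of 840 cases. Totals without the 10 top genes moved 14 of 36 mean shares by more than their SD. Across genes, deviations of same-numbered libraries correlated at -0.09 to 0.19 over 15 pairs of time points, with 1 above 0.1. Shared deviations were thus weak over the genes as a whole. Such values cannot tell whether replicate numbers stand for the 2 experiments, and single genes may still differ by experiment. With a replicate block, day 10 against 0 h was 2.54 for Malat1, 2.77 for Neat1, 0.12 for Rpph1 and -0.22 for Rmrp, with 10576 genes called, and Rpph1 became called in day 3 against 6 h (adjusted p = 0.0389; 0.00361 to 0.37 over all alternatives) and day 10 against day 7 (0.0309; 0.0138 to 0.287).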

Other observations

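Rprl2, an RNase P RNA-like gene and the most abundant of the other short structured RNAs, took 2 separate levels that did not follow time. It was at 580.6 scaled counts in 0 h replicate 1 and 38.1 in replicate 2, at 504.1 and 35.7 at 6 h, and at 921.2 and 28.7 at day 5. Both day 3 libraries were high (690.5 and 539.1), and all 4 libraries of days 7 and 10 were low (39.3 to 47.7). Replicate 1 exceeded replicate 2 by 15.2 times at 0 h, 14.1 times at 6 h and 32.1 times at day 5, against 1.28 times at day 3. Rprl3 and Rprl1, genes of the same kind, stayed within 78.6 to 137.9 and 4.48 to 11.3 scaled counts, and day 10 against 0 h was -2.74 for Rprl2 (SE 2.01, adjusted p = 0.245 by edgeR).

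Imprinted genes outside the domains of H19, Meg3 and Kcnq1ot1 were mostly higher at day 10. Of 19 tested among 44 listed, 13 were called higher and 5 lower than at 0 h, with a median of 1.07 beside 0.06 over all genes, and 42.8% and 39.9% of all genes were called in these directions. Mest and Sgce, nearly unseen at 0 h, passed the filter through later times alone, so they had to differ from 0 h. Mest, an enzyme gene known from growing fat tissue, had 3 counts at 0 h and 111 at day 10, a ratio of 45.5 with a 95% counting interval of 15.2 to 224. Atp10a, a lipid flippase, fell by 3.63 (adjusted p = 1.02e-12 by edgeR).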
